A study of Mus musculus with 8 samples.

Results

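Oxidative phosphorylation is run by the protein complexes of the inner mitochondrial membrane, and their nuclear genes were examined in livers of diet-induced obese (DIO) mice treated with IXA4 or with vehicle. The genes were taken by symbol from the deposited count table. They are the Ndufa, Ndufb, Ndufc, Ndufs and Ndufv symbols, the Uqcr, Cox4 to Cox8 and Atp5 symbols, the Sdh genes and Cycs, each with a summed count of at least 80 over 8 libraries. Of 26166 symbols in the table, 92 matched and 86 reached that count. The 86 hold 78 subunit genes, of which 38 belong to complex I, 4 to complex II, 8 to complex III, 12 to complex IV, 15 to complex V and 1 to cytochrome c. The other 8 symbols begin like subunits but are not, namely the complex I assembly factors Ndufaf1 to Ndufaf6 and the genes Atp5s and Atp5sl. All 86 passed the filter on low counts, which kept 12427 genes of the table.

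IXA4 is a small molecule that activates IRE1/XBP1s, the branch of the unfolded protein response in which the sensor IRE1 splices the Xbp1 mRNA. Both groups were male C57BL/6N mice made obese on a diet with 60% of kcal from fat, which were 14 weeks old when bought and had 3 more weeks on that diet before dosing. The IXA4 group (4 livers) received 50 mg/kg once a day by intraperitoneal injection for 8 weeks, and the vehicle group (4 livers) received the DMSO, Kolliphor, ethanol and saline carrier. Each library came from a separate animal, and libraries carry the numbers of their column headings, which are not the animals' numbers. Libraries held 16986915 to 18390185 counts.

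Complex I oxidises NADH and complex II oxidises succinate, and both pass electrons through ubiquinone to complex III, which hands them to cytochrome c and on to oxygen at complex IV. Complexes I, III and IV pump protons, and complex V, the ATP synthase, uses the gradient to make ATP. Most subunits are encoded in the nucleus and 13 are encoded in mitochondrial DNA, so the complexes need both sets of transcripts. Hepatocytes rely on this system for the oxidation of fatty acids and to pay for gluconeogenesis and urea synthesis.

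A single library stood apart for these genes and is named first. In IXA4 replicate 4, 84 of 86 genes were below every vehicle library (97.7%), where 30.5% of all genes tested were. The corresponding count was 56 in IXA4 replicate 3 (65.1%, all genes 27.0%), 24 in IXA4 replicate 1 (27.9%, all genes 23.7%) and 7 in IXA4 replicate 2 (8.14%, all genes 25.0%). Above every vehicle library were 10 genes in IXA4 replicate 1 (all genes 22.6%), 29 in replicate 2 (25.6%), 3 in replicate 3 (26.9%) and 0 in replicate 4 (32.1%). The IXA4 livers thus ranged from levels at or above vehicle to levels below all of it. Median fold changes of the 86 genes and of each complex are also given without IXA4 replicate 4. So are fold changes of single members that move by over 1.5 times without it, for Sdhc by sign alone. The lists of other mitochondrial genes are given with all libraries.

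No oxidative phosphorylation gene passed the test in either direction. edgeR's quasi-likelihood test, with Benjamini-Hochberg adjustment over all 12427 genes and a threshold of 0.05, called 0 of 86 higher (all genes 3.64%) and 0 of 86 lower (all genes 0.99%). The smallest adjusted p was 0.118, for Sdhd. At an unadjusted p under 0.05, 0 were higher (all genes 11.1%) and 8 were lower, which is 9.30% of the 86 (all genes 8.03%). That count rested on single libraries, being 26 when IXA4 replicate 2 was left out, 4 and 3 when IXA4 replicate 3 or 4 was, and 4, 2 and 5 when vehicle replicate 2, 3 or 4 was. DESeq2 called 0 higher (all genes 5.12%) and 2 lower, Sdha and Atp5b (all genes 2.06%).

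The fold changes were small and mostly of the same sign. The log2 fold change of IXA4 over vehicle was negative in 79 of 86 genes (91.9%, all genes 52.1%), with a median of -0.15 beside -0.015 over all genes tested. Without IXA4 replicate 4 the median was -0.058 and 68 of 86 were negative, and without IXA4 replicate 2 it was -0.22 and 83 were negative. The median by complex was -0.15 in complex I, -0.18 in complex II, -0.14 in complex III, -0.17 in complex IV, -0.15 in complex V and -0.14 in the 8 genes that are not subunits. Leaving out IXA4 replicate 4 gave medians of -0.058, -0.13, -0.041, -0.058, -0.063 and -0.084, in the same order. No difference between complexes was tested. The median standard error (SE) of a single gene was 0.12. The 95% interval left out a fall of 1.5-fold for 83 of 86 genes and a fall of 2-fold for 85.

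**Figure D1:**
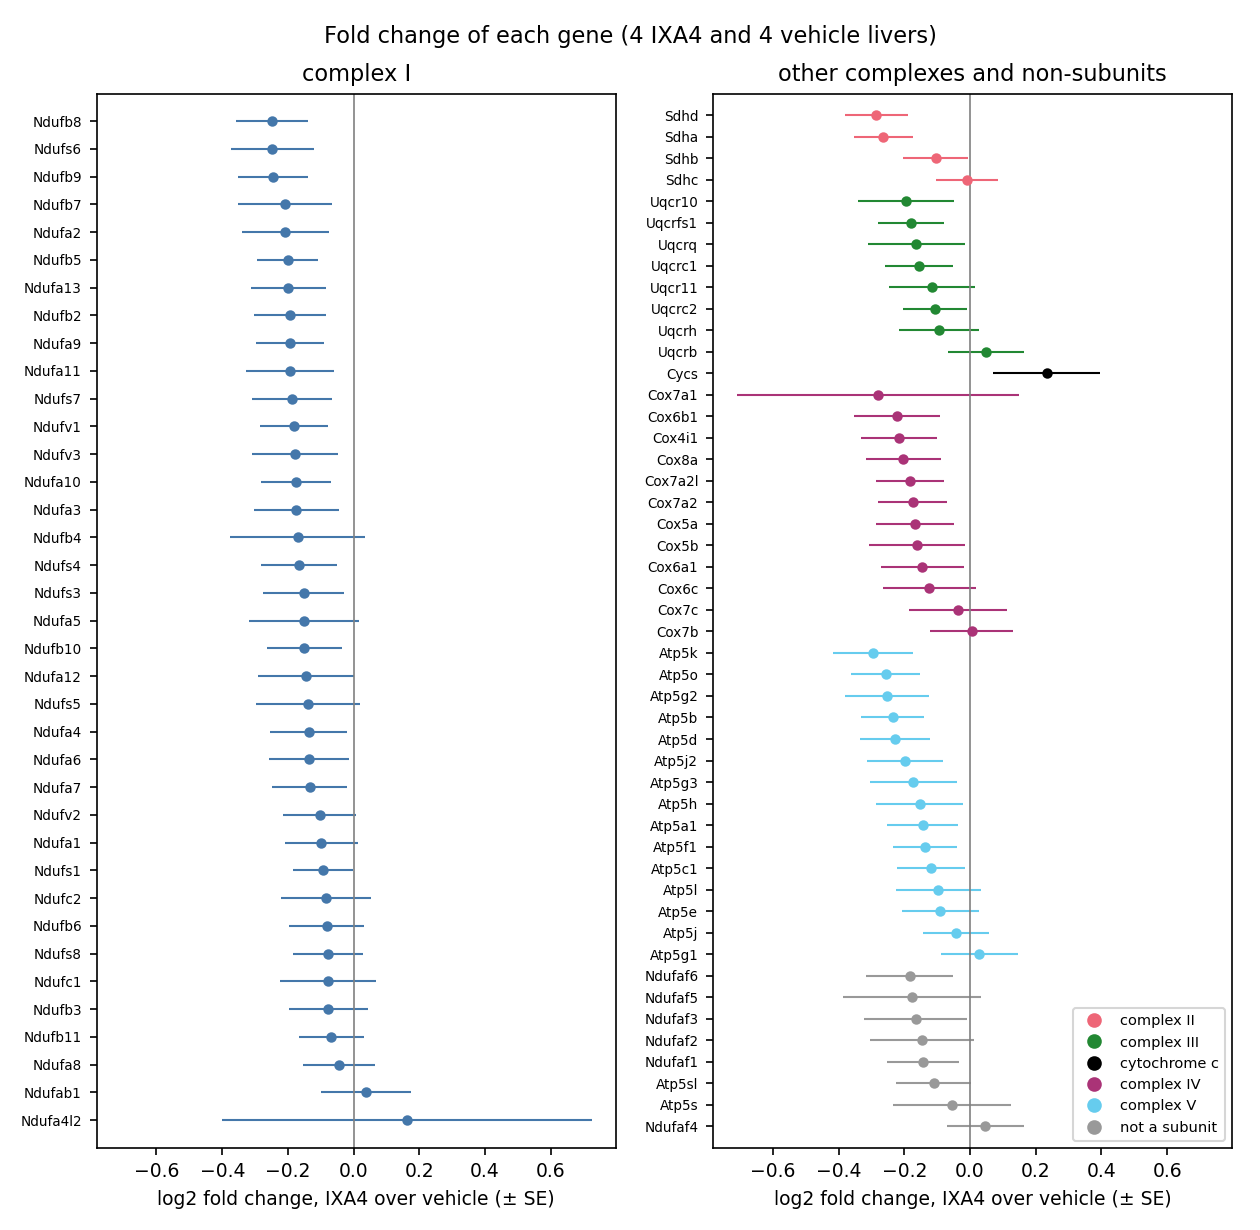
Log2 fold change of 85 of the 86 genes, IXA4 over vehicle, with its SE as a bar (4 livers in each group), complex I on the left and the rest on the right. In the plot 78 points lie left of 0, and Cycs at 0.23 and Ndufa4l2 at 0.16 lie farthest to the right.

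The level per liver was summarised as the mean over the 86 genes of log2 CPM minus the vehicle mean, where CPM is the count scaled to the TMM-normalised library size. It was -0.03, 0.06, -0.20 and -0.45 in IXA4 replicates 1 to 4 and -0.07, 0.00, 0.06 and 0.02 in vehicle replicates 1 to 4. The IXA4 mean was -0.15 ± 0.22 (SD, n = 4) and, without replicate 4, -0.05. Vehicle livers spread by 0.05 (SD, n = 4), so the groups overlapped, with 2 IXA4 livers inside or above the vehicle range. The lowest of the 8 libraries was IXA4 replicate 4 for 80 of 86 genes (93.0%, all genes 20.9%).

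**Figure D2:**
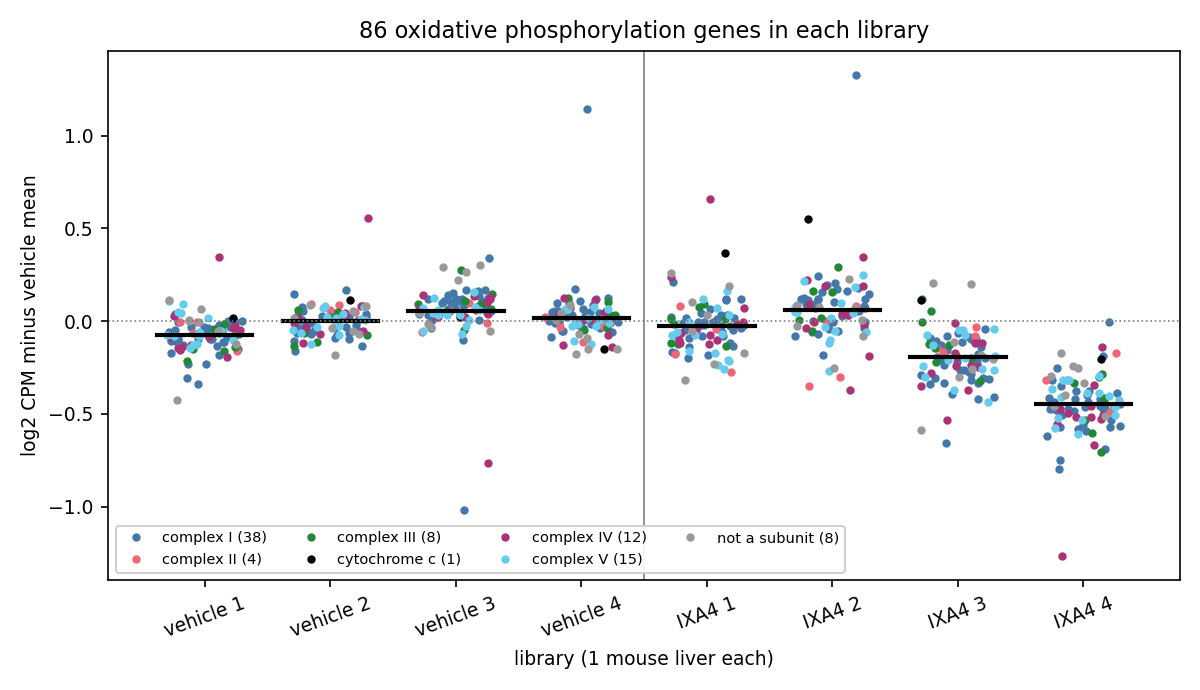
Log2 CPM minus the vehicle mean for each of the 86 genes in each library, coloured by complex, with the mean over genes as a black line. The mean sits at -0.45 in IXA4 replicate 4 and at -0.20 in IXA4 replicate 3, and between -0.07 and 0.06 in the other libraries.

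The genes also spread more among IXA4 livers than among vehicle livers. The SD of log2 CPM was larger with IXA4 for 80 of 86 genes (93.0%, all genes 61.3%). Its median was 0.24 with IXA4 and 0.09 with vehicle, and over all genes tested 0.23 and 0.18. Without IXA4 replicate 4 the median with IXA4 was 0.15. As a share of each library's counts, the 86 genes took 1.05% ± 0.134 (SD, n = 4) with IXA4 and 1.21% ± 0.0501 with vehicle, and the lowest share was 0.882% in IXA4 replicate 4.

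Complex II, succinate dehydrogenase, is also an enzyme of the tricarboxylic acid (TCA) cycle. Neither of its calls by the unadjusted p, Sdha and Sdhd, passed the edgeR threshold. The summed level of its 4 genes was 806, 798, 823 and 720 CPM in the IXA4 livers and 884, 948, 896 and 867 CPM in the vehicle livers, and the groups did not overlap. Sdha encodes the flavoprotein subunit that oxidises succinate (chromosome 13, 74459702 to 74487728, minus strand, assembly NCBIM37). Its level was 377, 370, 406 and 366 CPM with IXA4 and 455, 486, 438 and 446 CPM with vehicle. Every IXA4 liver was below every vehicle liver, and the log2 fold change was -0.26 (SE 0.09, edgeR adjusted p = 0.125). DESeq2 gave an adjusted p of 0.0201 for Sdha at the same fold change. Without IXA4 replicate 4 the fold change of Sdha was -0.25.

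Sdhd encodes a membrane anchor of complex II (chromosome 9, 50404443 to 50411954, minus strand, NCBIM37). Its level was 77.6, 68.7, 79.4 and 62.5 CPM with IXA4 and 83.9, 90.9, 87.2 and 89.1 CPM with vehicle. These groups did not overlap either, and the log2 fold change was -0.28 (SE 0.09, edgeR adjusted p = 0.118, and -0.22 without IXA4 replicate 4). The other anchor, Sdhc, had a log2 fold change of -0.01, and without IXA4 replicate 4 it was no longer negative. The iron-sulfur subunit gene Sdhb had -0.11, and -0.040 without IXA4 replicate 4. Groups overlapped for both.

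Across the 86 genes the groups did not overlap for 5, all lower with IXA4, which is 5.81% (all genes 5.24%). They included Sdha, Sdhd, Ndufb8 and Atp5b, and Ndufb8 was singled out after its values were seen. For 0 genes were all IXA4 livers above all vehicle livers (all genes 7.44%).

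In complex I, 36 of 38 genes had a negative fold change, from -0.25 to 0.16, the highest being Ndufa4l2 (0.28 without IXA4 replicate 4).

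The accessory subunit gene Ndufb8, of the membrane arm of complex I, was at 143, 147, 129 and 105 CPM with IXA4 and at 155, 152, 164 and 152 CPM with vehicle. IXA4 replicate 2 was only just below the lowest vehicle liver (log2 fold change -0.25, edgeR adjusted p = 0.232, and -0.16 without IXA4 replicate 4). Ndufb9, another membrane arm subunit gene, was at 204, 220, 184 and 166 CPM with IXA4 and at 214, 224, 254 and 225 CPM with vehicle, and these groups overlapped (log2 fold change -0.25, edgeR adjusted p = 0.226). Ndufab1, the mitochondrial acyl carrier protein gene, which also serves fatty acid synthesis in the organelle, had a log2 fold change of 0.04 (SE 0.14), and 0.15 without IXA4 replicate 4. The symbol Ndufa4 was counted with complex I, although its protein is now assigned to complex IV, and its log2 fold change was -0.14 (SE 0.12), and -0.039 without IXA4 replicate 4.

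In complex V, 14 of 15 genes had a negative fold change. The summed level of the 15 genes was 3728, 3751, 3715 and 3082 CPM in the IXA4 livers and 3848, 4113, 4057 and 4119 CPM in the vehicle livers. These sums do not overlap, but Atp5b and Atp5a1 had by far the highest levels of the 15. The mean deviation over the 15 genes, which weighs each gene alike, was -0.08, 0.02, -0.19 and -0.43 with IXA4 and -0.04, 0.00, 0.04 and 0.00 with vehicle, and by that measure the groups overlapped. Atp5b encodes the catalytic beta subunit (chromosome 10, 127520329 to 127527447, plus strand, NCBIM37). Its level was 1094, 1073, 1181 and 1035 CPM with IXA4 and 1245, 1295, 1319 and 1304 CPM with vehicle. All 4 IXA4 livers were below all vehicle livers (log2 fold change -0.24, SE 0.10, edgeR adjusted p = 0.196), and DESeq2 gave an adjusted p of 0.0492. Without IXA4 replicate 4 the fold change of Atp5b was -0.21.

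Atp5o, the gene of the stalk subunit known as OSCP, was at 69.3, 76.8, 66.5 and 55.7 CPM with IXA4 and at 86.2, 78.3, 82.4 and 73.5 CPM with vehicle. IXA4 replicate 2 was above the lowest vehicle liver, and the log2 fold change was -0.26 (edgeR adjusted p = 0.205). Atp5k, the gene of membrane subunit e, singled out after its values were seen, had the most negative fold change among the 86 (-0.29, SE 0.12, edgeR adjusted p = 0.205), and its groups overlapped. The alpha subunit gene Atp5a1, the partner of Atp5b in the catalytic head, had -0.14 (SE 0.11).

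**Figure D3:**
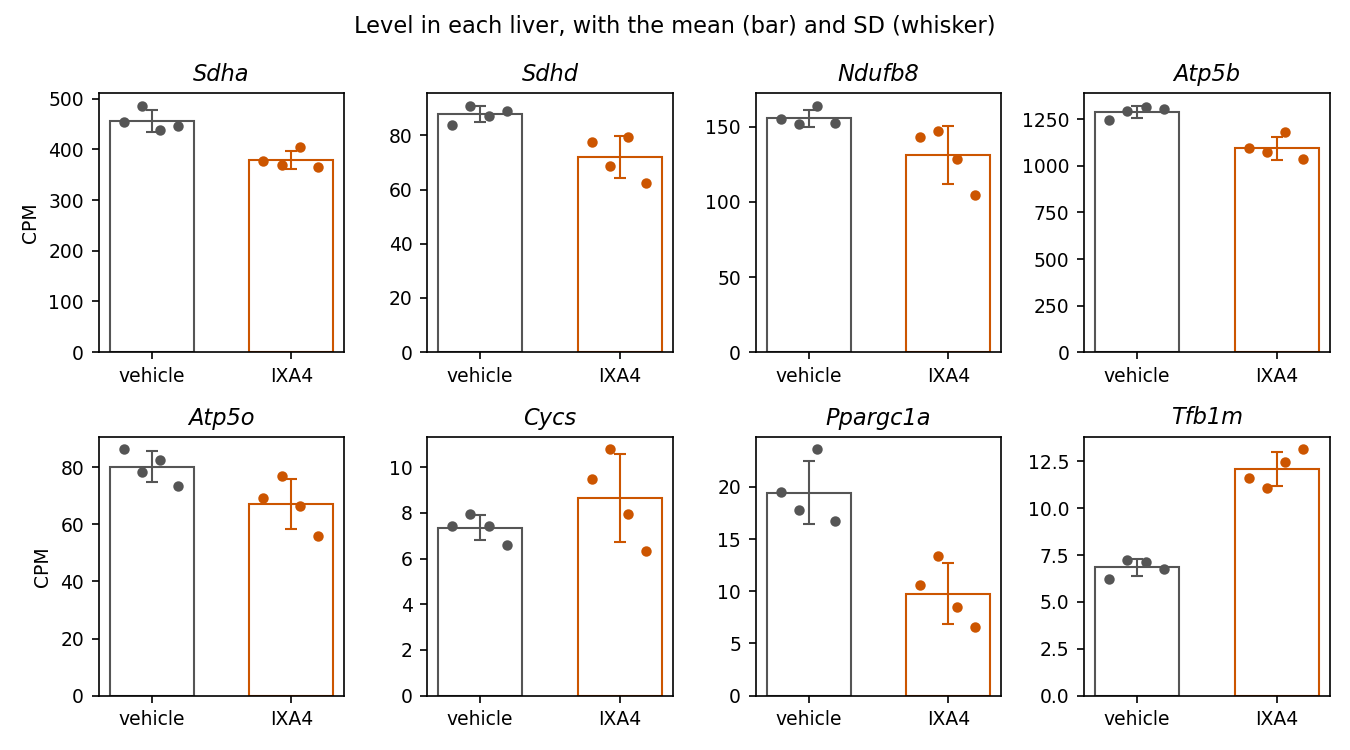
CPM in each liver for 6 of the 86 genes and for Ppargc1a and Tfb1m, with the group mean as a bar and the SD as a whisker (n = 4 livers in each group). IXA4 and vehicle points do not overlap for Sdha, Sdhd, Ndufb8, Atp5b, Ppargc1a and Tfb1m, and they overlap for Atp5o and Cycs.

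Complexes III and IV held 0 genes with an unadjusted p under 0.05, and DESeq2 called 0 in both. In complex III, 7 of 8 genes had a negative fold change. The Rieske iron-sulfur protein gene Uqcrfs1 had -0.18 (SE 0.10), the core protein gene Uqcrc1 had -0.16 (SE 0.10), and the positive value was that of Uqcrb (0.05, SE 0.12). These were -0.11, -0.079 and 0.15 without IXA4 replicate 4. Complex III levels summed to between 1051 and 1495 CPM with IXA4 and between 1350 and 1509 CPM with vehicle, and 2 of the IXA4 livers lay inside the vehicle range.

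In complex IV, 11 of 12 genes had a negative fold change. Cox4i1, the most abundant of them per length, was at 432, 461, 394 and 327 CPM with IXA4 and at 441, 447, 480 and 507 CPM with vehicle, and the groups overlapped (log2 fold change -0.22, SE 0.11, edgeR adjusted p = 0.338, and -0.13 without IXA4 replicate 4). Cox7b had a log2 fold change of 0.0046 (SE 0.13), and 0.10 without IXA4 replicate 4. Cox7a2l had -0.18 (SE 0.10). The mean deviation over the 12 genes was -0.54 in IXA4 replicate 4 and -0.24 in replicate 3, beside 0.03 and 0.04 in replicates 1 and 2.

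Cycs, the gene of somatic cytochrome c, had the highest fold change of the 86. Its level was 9.49, 10.8, 7.96 and 6.35 CPM with IXA4 and 7.42, 7.95, 7.44 and 6.60 CPM with vehicle. All of the IXA4 livers but replicate 4 were above the highest vehicle liver, replicate 3 by very little, and the groups overlapped (log2 fold change 0.23, SE 0.16, edgeR adjusted p = 0.477). Without IXA4 replicate 4 it was 0.36, with an adjusted p of 0.238. Reads of Cycs and of several small subunit genes can also match processed pseudogenes, and how the counting treated such reads is unknown here, which makes their levels uncertain.

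The genes that are not subunits were at low levels, and 7 of 8 had a negative fold change. The exception was Ndufaf4 (0.05, SE 0.12), and the lowest was Ndufaf6 (-0.18, SE 0.13), both complex I assembly factors. These were 0.13 and -0.087 without IXA4 replicate 4.

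Levels can be compared between genes only per length, and they are given as vehicle mean CPM per kilobase of the gene's median coding transcript. Lengths were known for 84 of 86 genes. The highest were Cox4i1 at 690 CPM per kilobase, Uqcrq at 684, Atp5b at 673 and Ndufa4 at 610. The highest of complex II was Sdhb at 242 CPM per kilobase and the lowest was Sdhd at 68.2. Median levels were 121 CPM per kilobase in complex I, 127 in complex II, 161 in complex III, 98.2 in complex IV and 175 in complex V. Cycs was listed at 2.35 CPM per kilobase, far below the medians of the complexes it links. That level is uncertain, because reads of Cycs can also match processed pseudogenes and how they were counted is unknown.

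**Figure D4:**
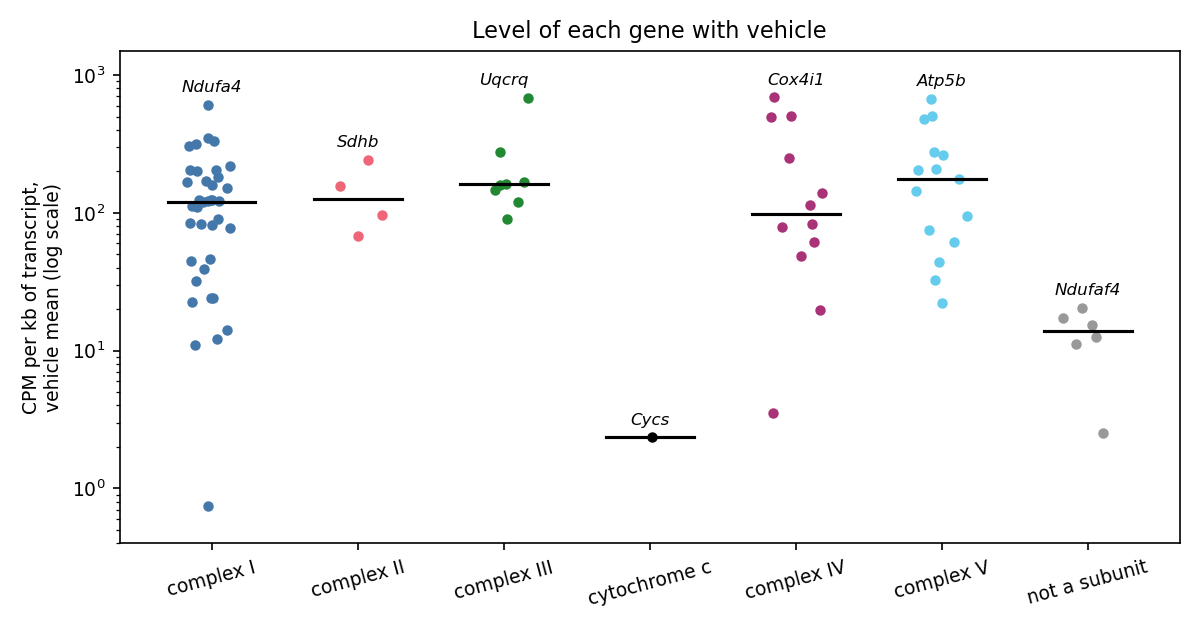
Vehicle mean level of each gene in CPM per kilobase of transcript, on a log scale, by complex, with the median as a line and the highest gene named. Medians of complexes I to V lie between 98.2 and 175 CPM per kilobase, while Cycs lies at 2.35, a level made uncertain by its processed pseudogenes.

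Several subunits exist as tissue isoforms, and the livers used the general ones. Of the vehicle level per kilobase of each family, Cox4i1 took 99.98%, Cox6a1 took 99.94% and Cox6b1 took 99.90%. The muscle isoform Cox7a1 took 2.18% of its family beside 85.7% for Cox7a2 and 12.1% for Cox7a2l. For the c-ring of complex V, which 3 genes encode as the same mature protein, Atp5g3 took 88.4%, Atp5g1 7.71% and Atp5g2 3.88%. Their log2 fold changes were -0.17, 0.03 and -0.25 (SE 0.13, 0.12 and 0.13), all short of the threshold, and -0.052, 0.13 and -0.20 without IXA4 replicate 4. Ndufa4l2, a paralog induced by hypoxia, took 0.122% of its pair with Ndufa4.

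The 6 symbols under the count threshold were all complex IV isoforms of muscle, testis or other tissues. Their summed counts over 8 libraries were 42 for Cox6b2, 16 for Cox6a2, 15 for Cox4i2, 5 for Cox8b and 0 for both Cox7b2 and Cox8c. Just inside the threshold were Ndufa4l2 with 109 counts and Cox7a1 with 168, and these are the members with the widest errors (SE 0.56 and 0.43).

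Promoters were searched because these genes are classic targets of the nuclear respiratory factor NRF1. RefSeq promoter sequences (GRCm38.p6) matched 73 of the 86 genes. The NRF1 motif, GCGC and TGCGC joined by any base, on either strand, was within 250 bases upstream of a gene start in 14 of 73 (19.2%), in 9.24% of the other genes tested with a promoter and in 4.23% of all 27025 genes with a RefSeq promoter sequence. The median log2 fold change was -0.16 for the 14 genes with it and -0.15 for those without. The letters CCGGAAGT (ETS factors such as GABP) were in 3 of 73 (4.11%, other genes tested 6.78%), AAGATGGC (YY1) in 2 (2.74%, 2.37%) and TGACGTGG, an unfolded protein response element that XBP1s can bind, in 1 (1.37%, 0.862%). That gene was Atp5s, which is not a subunit. A match is only a match of letters and shows no binding.

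The matches in the genes with the lowest p are shown with the motif in capitals, each 5′ to 3′ on the strand of the gene. Sdha carried 3 of them.
Sdha, 98 bases before the start, chr13:74350319-74350348: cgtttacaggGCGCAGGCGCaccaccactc
Sdha, 55 bases before the start, chr13:74350276-74350305: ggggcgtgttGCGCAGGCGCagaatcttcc
Sdha, 10 bases before the start, chr13:74350241-74350260: gcgactcggtGCGCAAGCGC
Sdhd, 79 bases before the start, chr9:50603909-50603938: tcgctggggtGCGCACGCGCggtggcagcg
Atp5k, 50 bases before the start, chr5:108434430-108434459: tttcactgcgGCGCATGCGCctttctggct
All lie on the minus strand of GRCm38.p6. Ndufb8 and Atp5b, whose groups did not overlap either, are not among the 14.

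The 13 subunits encoded in mitochondrial DNA did not share the negative sign. edgeR called 0 of 13, with 1 at an unadjusted p under 0.05 (ND4L, complex I, log2 fold change 0.34, SE 0.13, adjusted p = 0.161), and DESeq2 called 0. Their median log2 fold change was 0.03 and 4 of 13 were negative. They took 13.8% ± 1.65 of counts with IXA4 and 13.7% ± 1.06 with vehicle (SD, n = 4). COX1, a catalytic subunit of complex IV, was at 33450, 38064, 37391 and 29846 CPM with IXA4 and at 31357, 35912, 33936 and 34709 CPM with vehicle. IXA4 replicate 4 again had the lowest level. Transcripts of the mitochondrial genome overlap or adjoin each other and the strand setting of the counts is not given, so single values, above all ND6, are uncertain.

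Beyond the symbol rule, 3 subunit genes (Cyc1, Usmg5 and 2010107E04Rik) and Atpif1, the gene of the inhibitor of complex V, were tested, and edgeR and DESeq2 called 0, with 1 (Cyc1) at an unadjusted p under 0.05. Cyc1, the cytochrome c1 gene of complex III, was at 216, 208, 196 and 164 CPM with IXA4 and at 219, 245, 244 and 233 CPM with vehicle. Its groups did not overlap and its log2 fold change was -0.26 (SE 0.10, edgeR adjusted p = 0.179), close to that of Sdha.

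Among 19 regulators of mitochondrial biogenesis, 1 fell (5.26%, all genes 0.99%) and 1 rose (5.26%, all genes 3.64%). Ppargc1a encodes PGC-1alpha, a coactivator of genes of mitochondrial metabolism and of gluconeogenesis. Its level was 10.6, 13.4, 8.48 and 6.63 CPM with IXA4 and 19.6, 17.8, 23.6 and 16.8 CPM with vehicle. The groups did not overlap, and Ppargc1a fell by 0.99 on the log2 scale (SE 0.19, edgeR adjusted p = 0.0133). Under the alternatives its adjusted p went no higher than 0.0457.

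Tfb1m, which encodes a methyltransferase of mitochondrial ribosomal RNA, was at 11.6, 11.1, 12.5 and 13.1 CPM with IXA4 and at 6.23, 7.22, 7.14 and 6.77 CPM with vehicle. It rose by 0.82 on the log2 scale (SE 0.12, edgeR adjusted p = 0.00159), with every IXA4 liver above every vehicle liver. Gabpa, a subunit of the ETS factor GABP, had 0.32 (SE 0.11, adjusted p = 0.124), and the mitochondrial deacetylase gene Sirt3 had -0.29 (SE 0.10, adjusted p = 0.127), neither past the threshold.

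Of 37 assembly factors, edgeR called 1 higher (2.70%, all genes 3.64%) and 0 lower, with 4 lower at an unadjusted p under 0.05 (10.8%, all genes 8.03%), and DESeq2 called 1 higher and 1 lower. The gene that rose was Foxred1, a factor needed to build complex I, at 30.1, 34.1, 35.1 and 31.4 CPM with IXA4 and 20.9, 20.7, 22.9 and 23.4 CPM with vehicle. The groups did not overlap and the log2 fold change was 0.57 (SE 0.10, edgeR adjusted p = 0.00399). In the list, 25 of 37 had a negative fold change (67.6%, all genes 52.1%). Among these, Cox10 had the smallest p (log2 fold change -0.50, SE 0.15, edgeR adjusted p = 0.0751), followed by Acad9 (-0.22, SE 0.09, edgeR adjusted p = 0.180). Neither passed the threshold, and for both every IXA4 liver was below every vehicle liver.

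The remaining mitochondrial lists held no call by edgeR. Of 20 genes of the TCA cycle, pyruvate dehydrogenase and its kinases, 18 had a negative fold change (90.0%, all genes 52.1%, median -0.12). At an unadjusted p under 0.05, 5 were lower (25.0%, all genes 8.03%), and DESeq2 called 0. The list includes the kinase genes Pdk1, Pdk2 and Pdk4, whose proteins inhibit pyruvate dehydrogenase. Among the 5, the smallest p were those of Pdk2 (log2 fold change -0.35, edgeR adjusted p = 0.100) and Pdk1 (-0.30, edgeR adjusted p = 0.115). Pdk4 had 0.45 (SE 0.62). Of 76 mitochondrial ribosome genes, 56 had a negative fold change (73.7%, median -0.10), with 6 lower and 1 higher at an unadjusted p under 0.05 (7.89% lower, near the share over all genes), and DESeq2 called 1 higher. Of 14 chaperones and proteases 9 had a negative fold change (64.3%, all genes 52.1%) and the median was -0.16. At an unadjusted p under 0.05, 3 were lower (21.4%, all genes 8.03%) and 1 was higher (7.14%, all genes 11.1%). DESeq2 called 1 of the 14 lower (all genes 2.06%). Of 7 ADP/ATP carriers, porins and uncoupling proteins the median was -0.05, with 0 at an unadjusted p under 0.05 and 0 by DESeq2. The medians of the TCA and ribosome lists lay between those of the 86 genes and of all genes tested. That of the chaperones and proteases was below both.

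In single libraries the deviations of other genes went with transcript length. The median log2 fold change of the members did not go steadily with it. It was -0.15 under 750 bases (44 genes), -0.14 from 750 to 1500 (28 genes) and -0.17 from 1500 to 3000 (11 genes). The 84 genes with a length had a median transcript of 701 bases, against 2251 over the genes tested. In IXA4 replicate 4 the median deviation from the vehicle mean, over all other genes tested, was -0.15 for transcripts under 750 bases and 0.23 for those over 6000 bases. The 44 members under 750 bases had a median of -0.51 in that library, lower than the other short genes. In IXA4 replicate 3 the values were -0.14 for the other genes under 750 bases and -0.24 for the members. With offsets that take out each library's trend with length, the median log2 fold change of the 84 was -0.12, 75 of them were negative, and 0 were called.

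**Figure D5:**
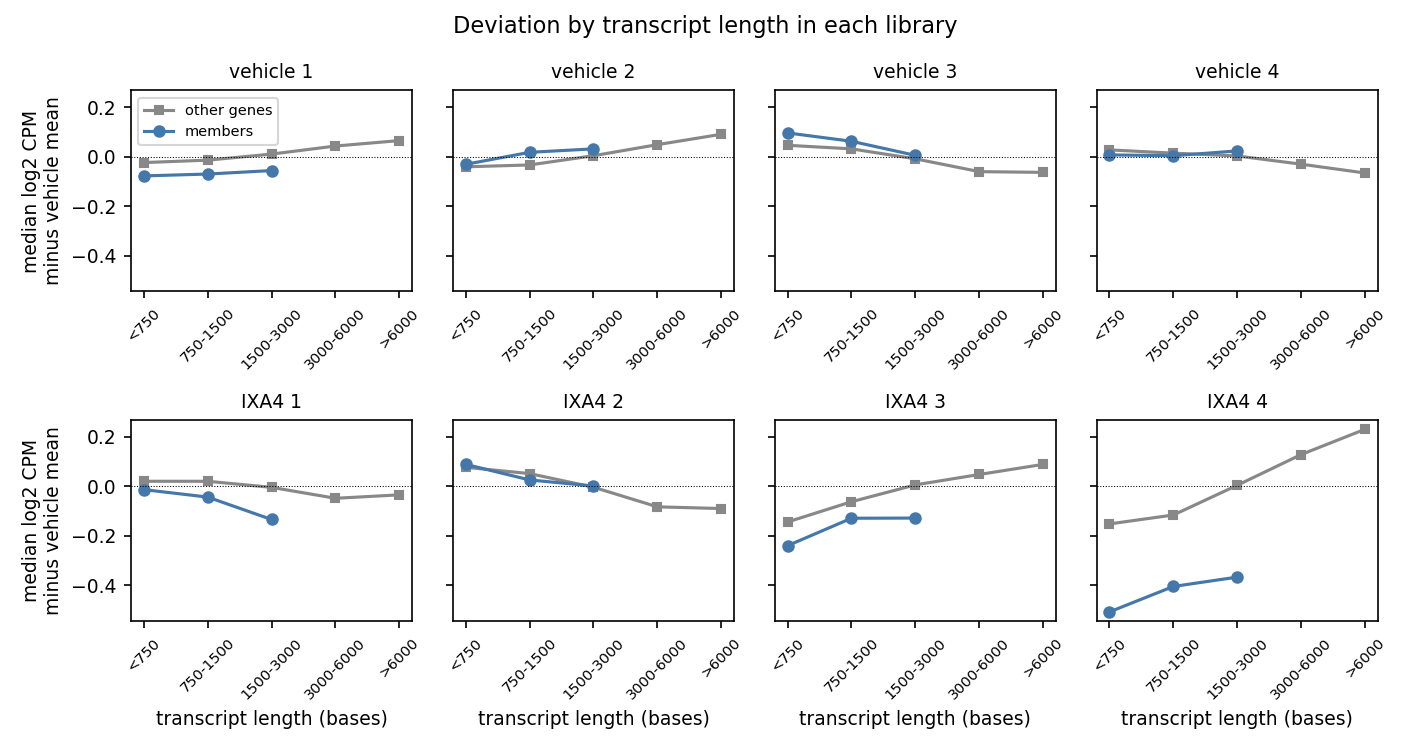
Median log2 CPM minus the vehicle mean by transcript length, in each library, for other genes tested (grey squares) and for members (blue circles, bins of at least 10 members). In IXA4 replicate 4 other genes go from -0.15 to 0.23 with length, and members lie lower than other genes of their length, at -0.51 in the shortest bin.

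These are bulk livers, in which fewer cells of a type and less RNA per cell cannot be told apart. The 8 hepatocyte markers (Alb, Ttr, Apoa1 and others) were all abundant, edgeR called 0 of them, DESeq2 called 1 lower (1 lower at an unadjusted p under 0.05), and their summed level was 93201 to 120915 CPM with IXA4 and 103199 to 131898 CPM with vehicle, lowest in IXA4 replicate 4. Of 7 markers of stellate cells and fibroblasts, 3 rose (Col1a1, Col1a2 and Col3a1, 42.9%, all genes 3.64%). Dcn (-0.19), Lrat (-0.71), Des (-0.21) and Pdgfrb (0.24) did not pass, and of these 4 the groups did not overlap for Des, lower with IXA4. The summed level was 291 to 541 CPM with IXA4 and 165 to 237 CPM with vehicle. Of 5 cholangiocyte markers, 2 rose (Krt19 and Spp1, 40.0%, all genes 3.64%), with sums of 44.5 to 49.7 CPM and 25.9 to 31.1 CPM. The log2 fold change was positive in all 5 (median 0.85), and 4 were higher at an unadjusted p under 0.05 (all genes 11.1%). DESeq2 called 2 of the 5 higher (all genes 5.12%). Of 6 endothelial markers, 1 fell (Kdr, 16.7%, all genes 0.99%), with sums of 57.6 to 85.0 CPM and 72.9 to 132 CPM. All 6 had a negative fold change (median -0.63), 3 were lower at an unadjusted p under 0.05 (50.0%, all genes 8.03%), and DESeq2 called 2 lower. Of 6 macrophage markers edgeR and DESeq2 called 0 (1 higher at an unadjusted p under 0.05), with sums of 160 to 269 CPM and 142 to 286 CPM. Of the T and B cell markers only Ptprc passed the filter. DESeq2 alone called it higher (log2 fold change 0.89, edgeR adjusted p = 0.0524, groups overlapping). Of 3 erythroid markers 0 were called, with sums of 394 to 1054 CPM and 448 to 2449 CPM. Of 3 mesothelium markers 0 were called, with sums of 5.91 to 26.4 CPM and 5.20 to 16.8 CPM. The part of these cell types in the levels of the 86 genes was not tested. Of the muscle and fat markers, Ucp1, Adipoq, Lep, Myh6 and Myl2 had 0 counts over 8 libraries, Ckm 1, Myh7 2, Plin1 5, Acta1 22 and Tnnt2 31. The exception was Cidea, a lipid droplet gene listed for brown fat, which was at 5.71, 18.2, 10.1 and 0.110 CPM with IXA4 and 17.3, 38.8, 2.42 and 77.0 CPM with vehicle, lowest in IXA4 replicate 4. Its groups overlapped (edgeR adjusted p = 0.433), and its part in the levels of the 86 genes was not tested.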

How the data were processed

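Liver RNA of DIO mice (4 given IXA4, 4 given vehicle) was sequenced as single-end reads of 50 bases. The authors aligned the reads to MGSCv37 with DNAstar SeqManPro and counted them with ArrayStar and its QSeq module, and the deposited table holds whole-number counts per gene symbol, not normalized. For multi-mapping, strand and annotation release the setting is not given in the sources used here. A deposited table of the authors' own comparison was not used. Columns with a vehicle heading were taken as vehicle, and the other 4 were taken as IXA4. The headings of those 4 do not name IXA4, so their group was inferred from the name of the deposited table and the number of columns.

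Genes were kept by filterByExpr (minimum count 10, minimum total 15), normalized by TMM and tested with edgeR 4.0.16 (robust quasi-likelihood F test, no covariate) in R 4.3.3, with limma 3.58.1, and SEs were those implied by the test. The code was tested on simulated data. Alternatives were DESeq2 1.42.0, DESeq2 size factors, total counts, other filters, each library left out, subunits alone and, chosen after seeing the data, an offset for transcript length. The 86 genes, the gene lists and the naming rule were chosen with earlier results of these data known. Named were genes past the threshold, up to 2 genes of smallest p per direction in each complex and in some of the lists, the most abundant gene of each complex, isoforms and non-subunits. Log2 CPM used a prior count of 2. Positions and lengths came from GENCODE vM1 (NCBIM37), matched by symbol, and promoters from RefSeq (GRCm38.p6). Values of 1 of the 86 genes are left out of the text.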

Additional observations from a re-analysis of the deposited data

Results flagged for a closer look

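Among 98 sets of 4 values examined (named genes and scores, in each group), 1 held a liver far from the other livers of its group by Dixon's ratio of gap to range, above its 95% critical value for sets of 4. Chance flags about 1 in 20 such sets. Cox7a2l was at 16.9 CPM in IXA4 replicate 2, with the other IXA4 livers at 19.8 to 20.3 CPM (ratio 0.852).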

How the results depend on the processing

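No oxidative phosphorylation gene was called by edgeR under any alternative run, the fits without a library included (0 to 0 in each direction). DESeq2 in place of edgeR called 2 lower, Sdha (log2 fold change -0.27, adjusted p = 0.0201) and Atp5b (-0.24, adjusted p = 0.0492), and over all genes tested it called 892 against 575. The median log2 fold change stayed negative, at -0.14 to -0.18 under other scalings and filters, -0.15 for subunits alone and -0.12 with the length offset, and ranged from -0.22 (without IXA4 replicate 2) to -0.058 (without IXA4 replicate 4) when a library was left out. Over all genes, the fits without vehicle replicate 1, 2 or 4 called 304, 320 and 358. Among the members chosen by the naming rule, signs turned in some alternatives for Cox7b, Atp5g1, Ndufa4l2, Uqcrb, Ndufab1, Ndufaf4 and Atp5s, all near 0 or imprecise. Signs of other members turned as well, since 79 of 86 were negative in the main fit and 68 without IXA4 replicate 4. No paired analysis was possible because the column headings carry numbers that are not the animals' numbers, and the animals' numbers shared by the groups are fewer than 2. With 4 livers in a group and a median SE of 0.12, a typical difference seen here was about as large as its error.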
